A study of Homo sapiens with 10 samples.

Results

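The data described here are the changes from day 3 to day 7 of topotecan exposure in PC-3 spheroids (an established line from a human prostate carcinoma), in each of the 2 regimens that the study compared. In CONV-TOPO the drug was added as a bolus on day 0, and in EE-TOPO (extended exposure, the metronomic schedule) it was added daily in small fractions. Bulk RNA-seq of 1 library for each treatment and day gave the 4 treated libraries compared here (CONV-TOPO and EE-TOPO on days 3 and 7) and 3 untreated libraries (days 0, 3 and 7). All carried the wild-type PC-3 genotype in 3D culture. Values are counts per 1000000 reads (CPM), and a change is the log2 ratio of day 7 over day 3 on log2(CPM + 0.1) within a regimen. Of 18144 listed genes, 9958 averaged at least 10 CPM over the 4 treated libraries, and 8884 of these had the same direction in both regimens and are the genes described. The bolus was smaller for the CONV-TOPO spheroids collected on day 3 than for those collected on day 7, and the fractions of EE-TOPO had added up for longer by day 7, so dose and time cannot be told apart. The labels' day 7 is used for the later time, which the study's text gives in weeks.

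Topotecan traps topoisomerase I (TOP1), the enzyme that relaxes the supercoils that form in front of replication forks and RNA polymerases, on the DNA it has cut. A fork or polymerase that meets such a complex turns it into a DNA break or stalls, and checkpoint, repair and cell death programs are known to follow. Expression in a spheroid also depends on time alone, since nutrients, oxygen and cell density change as the culture ages. The untreated change from day 3 to day 7 is therefore set beside each treated change. It shares no library with them.

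With 1 library for each treatment and day no group had a replicate, and no p-value is given. A fit that takes the regimens as replicates of one another was not run. A gene was called when it was at least 2-fold different in the same direction in both regimens, and intervals are exact 95% conditional binomial intervals of the estimated reads, which cover counting error only and whose lower and upper bounds are given in parentheses. Estimated depth was 15.03 to 22.5 M reads (M, 1000000) per library, and 3 reads, the limit for a gene at 0, correspond to 0.133 to 0.200 CPM. In bulk RNA, fewer cells of a kind and less RNA per cell cannot be told apart.

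Both treated day-7 libraries stood apart from the other 5. Genes of ribosomal RNA held 2.19% of reads on day 7 of CONV-TOPO and 2.08% on day 7 of EE-TOPO, against 0.484% to 0.615% elsewhere. The median of the 9958 genes was 38.4 and 38.6 CPM in these 2 libraries and 44.7 to 47.7 CPM in the others. The median log2 change was -0.27 for CONV-TOPO, -0.26 for EE-TOPO and -0.01 for untreated spheroids, and TMM scaling (a trimmed mean of log ratios) moved these to 0.03, 0.04 and -0.03. Changes below are to be read against those medians. The epithelial and PC-3 markers KRT19, VIM, KRT8, KRT18, HOXB13, CD44, CDH1 and EPCAM were at 149 to 2791 CPM in every library. Those of other tissue cells were at most 0.601 CPM for COL1A2, PTPRC, ALB and VWF, while CD68, COL1A1 and PECAM1 were at 16.8 to 128 CPM. Of the markers that PC-3 is known to lack, SYP was at most 1.79 CPM, but TMPRSS2, an androgen-regulated protease gene, was at 71.4 to 149 CPM.

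Of the 9958 genes, 3138 (31.5%) were higher on day 7 in both regimens, 5746 (57.7%) were lower in both, and 1074 differed in direction between the regimens. The direction is what chose the genes and is given as a description. At least 2-fold higher in both were 173 genes (1.74%), and at least 2-fold lower in both were 1175 (11.8%). In untreated spheroids, 54 of the same 9958 genes were at least 2-fold higher (0.542%) and 82 at least 2-fold lower (0.823%). The excess of lower over higher genes depended on the scaling. With TMM, 640 genes were called higher and 491 lower, and 4596 genes were higher and 4268 lower in both at any size.

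Set against the untreated change, 489 genes (4.91%) lay at least 2-fold above it in both regimens and 1634 (16.4%) at least 2-fold below. Both differences contain the same untreated pair. The standard deviation of the log2 change over genes was 0.717 for CONV-TOPO and 0.808 for EE-TOPO, but 0.344 untreated. Over the 9958 genes, which are no replicates of one another, the changes of CONV-TOPO and EE-TOPO had a rank correlation of 0.914. The rank correlations with the untreated change were -0.287 and -0.367. Of the 173 called higher, 132 (76.3%) were lower in untreated spheroids, where 51.2% of all tested genes were lower. Of the 1175 called lower, 870 (74.0%) were higher in untreated spheroids, against 48.8% of all. At the threshold, CAPNS1 lay just inside at a smaller log2 change of 1.0007 and UBE2S just outside at 0.99999. On the lower side, SAMD8 lay just inside at -1.0007. WDR90, at 10.002 CPM, was the last gene inside the filter, and IPW, at 9.999 CPM, the first outside it.

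**Figure D1:**
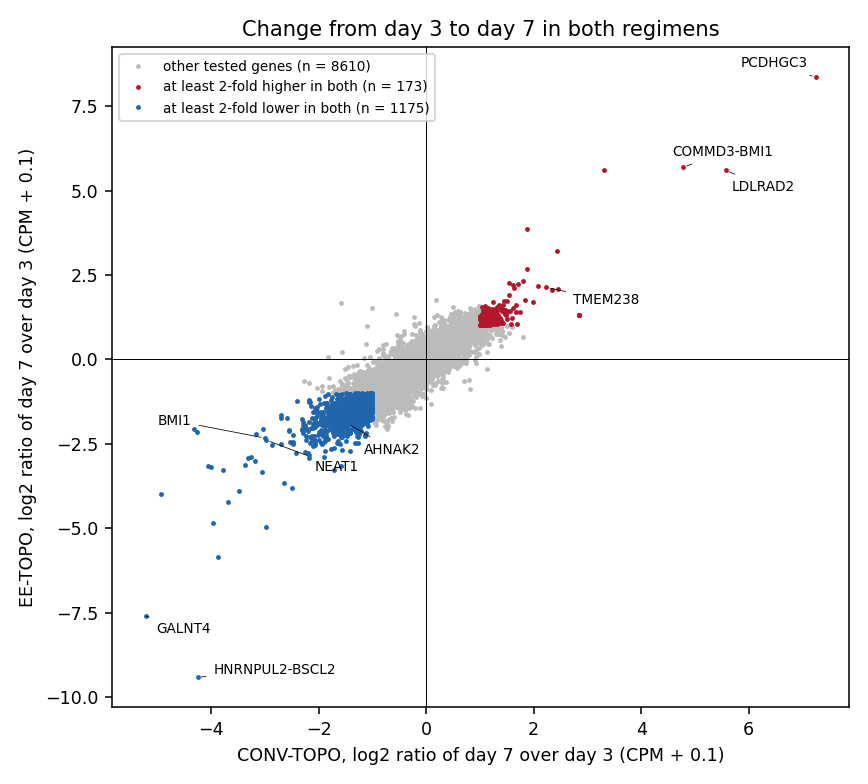
Each point is 1 of the 9958 tested genes, with its log2 ratio of day 7 over day 3 in CONV-TOPO on the x axis and in EE-TOPO on the y axis. Red points were at least 2-fold higher in both regimens (n = 173), blue points at least 2-fold lower in both (n = 1175) and grey points neither. The points follow the diagonal, and the farthest at upper right are PCDHGC3, LDLRAD2 and COMMD3-BMI1.

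COMMD3-BMI1 and AHNAK2 were the genes named as markers of this comparison, one in each direction. COMMD3-BMI1 is a readthrough gene, a transcript that starts in COMMD3 (a subunit of a complex that sorts membrane proteins from endosomes) and runs on into BMI1 (a polycomb protein that silences CDKN2A). It is listed on chromosome 10 of hg38 from 22316383 to 22331486. It was at 1.64 CPM on day 3 of CONV-TOPO and 47.6 CPM on its day 7, at 0.702 and 41.2 CPM on the same days of EE-TOPO, and at 4.64 and 1.54 CPM without drug, and at 1.86 CPM on day 0. Both treated day-7 libraries were above all 5 others. The ratio of day 7 over day 3 was 29 in CONV-TOPO (bounds 19.4 and 44.9) and 58.6 in EE-TOPO (bounds 35.3 and 102), and 0.331 untreated. AHNAK2 encodes a giant scaffold protein and is listed on chromosome 14 from 104937253 to 104978375. It was at 306 CPM on day 3 of CONV-TOPO and 111 CPM on its day 7, at 328 and 88.2 CPM on the same days of EE-TOPO, and at 236 and 307 CPM without drug. Both day-7 libraries of topotecan were below every other library, and the ratios were 0.362 in CONV-TOPO (bounds 0.343 and 0.382) and 0.269 in EE-TOPO (bounds 0.253 and 0.285).

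A readthrough gene shares most of its exons with its parents, so the join between them was read. Joins were read for 7 of the called readthrough genes, and in 6 the join lies in coding sequence. For these 6, the last 30 bases of the exon before the join (lower case) precede the first 30 bases of the next exon (capitals). That next exon is the first to overlap the downstream parent. Sequences are shown 5′ to 3′ from GENCODE 44 on GRCh38. In POC1B-GALNT4 the next exon starts inside the exon of GALNT4. Of its 5436 bases, POC1B-GALNT4 shares 252 with POC1B and 5029 with GALNT4, so some belong to neither. None of these joins is in the canonical transcript of either parent.
COMMD3-BMI1: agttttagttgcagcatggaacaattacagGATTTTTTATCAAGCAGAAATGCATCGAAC
POC1B-GALNT4: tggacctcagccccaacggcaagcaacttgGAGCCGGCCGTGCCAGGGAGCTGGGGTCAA
CHURC1-FNTB: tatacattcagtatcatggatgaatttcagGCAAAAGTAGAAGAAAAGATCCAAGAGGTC
FMC1-LUC7L2: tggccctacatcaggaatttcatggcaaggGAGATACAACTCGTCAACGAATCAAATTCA
HNRNPUL2-BSCL2: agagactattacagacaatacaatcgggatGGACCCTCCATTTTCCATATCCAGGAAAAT
ISY1-RAB43: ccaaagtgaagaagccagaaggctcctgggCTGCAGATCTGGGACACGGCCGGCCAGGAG
The joined exons of COMMD3-BMI1 lie at 22318959-22319018 and 22326431-22326561 of chromosome 10 on the plus strand. Those of CHURC1-FNTB are on chromosome 14 (plus strand) and those of FMC1-LUC7L2 on chromosome 7 (plus strand), while POC1B-GALNT4 on chromosome 12, HNRNPUL2-BSCL2 on chromosome 11 and ISY1-RAB43 on chromosome 3 are on the minus strand. The canonical COMMD3-BMI1 transcript holds 1000 of the 3540 bases of BMI1, POC1B-GALNT4 holds 5029 of the 5385 of GALNT4, and HNRNPUL2-BSCL2 holds 1610 of the 1710 of BSCL2. The tool that gave reads to genes, and whether it used strand, are not given in the sources used here, so the split of reads between such genes is uncertain. Some values are below what 1 read could give, such as 1.1e-08 CPM for the readthrough gene TRIM59-IFT80 on day 7 of CONV-TOPO, so part of the reads had been assigned as fractions.

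The parents of COMMD3-BMI1 moved the other way or stayed near their level. BMI1 went from 139 to 17.3 CPM with CONV-TOPO, from 128 to 25.4 CPM with EE-TOPO and from 177 to 139 CPM untreated. COMMD3 went from 35.2 to 30.5 CPM with CONV-TOPO, from 28.3 to 31 CPM with EE-TOPO and from 51.7 to 31 CPM untreated. Summed over the 3 genes, the locus went from 176 to 95.4 CPM with CONV-TOPO, from 157 to 97.5 CPM with EE-TOPO and from 233 to 171 CPM untreated, so its total was lower on day 7 of both regimens while the readthrough gene was higher. The untreated sum was also lower on day 7 than on day 3, by 1.36-fold.

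The same kind of shift was present at other loci. GALNT4, a glycosyltransferase that starts O-linked sugar chains and whose gene has a single coding exon, went from 70.8 to 1.81 CPM with CONV-TOPO, from 59.9 to 0.209 CPM with EE-TOPO and from 61.2 to 59.2 CPM untreated, and POC1B-GALNT4 went from 3.69 to 19 CPM with CONV-TOPO, from 5.21 to 21.8 CPM with EE-TOPO and from 8.52 to 5.74 CPM untreated. POC1B, a centriole protein, went from 33.2 to 14 CPM with CONV-TOPO and from 27.4 to 18.7 CPM with EE-TOPO, and the sum of the 3 went from 108 to 34.8 CPM with CONV-TOPO, from 92.5 to 40.7 CPM with EE-TOPO and from 103 to 100.5 CPM untreated. The sum was lower in both regimens, by 3.10-fold and 2.27-fold. HNRNPUL2-BSCL2 went in the opposite direction to POC1B-GALNT4. It went from 123 to 6.33 CPM with CONV-TOPO, from 131 to 0.0915 CPM with EE-TOPO and from 125 to 113 CPM untreated, and BSCL2, which encodes the lipid droplet protein seipin, went from 20.1 to 79.5 CPM with CONV-TOPO, from 23.9 to 78.1 CPM with EE-TOPO and from 20.7 to 23.7 CPM untreated. Its last treated value is below the 3-read limit, and its ratio in EE-TOPO was 0.000699 (bounds 1.29e-05 and 0.00283). The summed locus was at 348 and 300.4 CPM with CONV-TOPO and at 351 and 271 CPM with EE-TOPO, which is 1.16-fold and 1.29-fold lower.

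CHURC1-FNTB went from 13.6 to 73.9 CPM with CONV-TOPO and from 5.94 to 56.3 CPM with EE-TOPO as FNTB, the farnesyltransferase beta subunit, went from 67 to 26.8 CPM with CONV-TOPO and from 61 to 40.4 CPM with EE-TOPO. FMC1-LUC7L2 went from 8.09 to 29.7 CPM with CONV-TOPO and from 7.50 to 49 CPM with EE-TOPO as LUC7L2, a U1 snRNP splicing factor, went from 95 to 46.4 CPM with CONV-TOPO and from 89.9 to 39.7 CPM with EE-TOPO. Both readthrough genes were higher and both downstream parents lower. INO80B-WBP1 differed from these. It went from 5.10 to 28.4 CPM with CONV-TOPO and from 5.28 to 22.7 CPM with EE-TOPO, and its parents INO80B (24.8 to 32.6 and 20.3 to 36.9 CPM) and WBP1 (65.1 to 124 and 62.2 to 113 CPM) were also higher. Of 120 readthrough genes listed, 20 averaged at least 10 CPM over the 4 treated libraries. That mean includes the day-7 values. COMMD3-BMI1, POC1B-GALNT4, INO80B-WBP1 and FMC1-LUC7L2 were below 10 CPM on day 3 of both regimens and passed only through day 7. Some called lower, such as ISY1-RAB43, were below 10 CPM on day 7 of both regimens and passed through day 3. Of the 20, 6 were called higher and 6 lower, where 1.74% and 11.8% of all tested genes were. The filter in part sets these counts, so they are no result about readthrough genes. The remaining gene called higher was RPL36A-HNRNPH2 (24.5 to 57.4 and 13.7 to 35.2 CPM). Besides HNRNPUL2-BSCL2, those called lower were ISY1-RAB43 (29.5 to 5.15 and 33.9 to 2.30 CPM), TMED7-TICAM2 (14.1 to 0.642 and 21.6 to 4.80 CPM), BMS1P4-AGAP5 (15.7 to 5.24 and 15.4 to 4.97 CPM), PEDS1-UBE2V1 (30.8 to 12.3 and 30.3 to 7.96 CPM) and ANKHD1-EIF4EBP3 (35.5 to 10.6 and 37.4 to 15.3 CPM). In 4 of the 12 called, the summed locus was at least 2-fold changed in both regimens. Among these was POC1B-GALNT4, where the sum was lower while the readthrough gene was higher. In 9 of the 12 at least 1 parent moved the other way in both regimens, and in 7 of them the parents summed did.

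**Figure D2:**
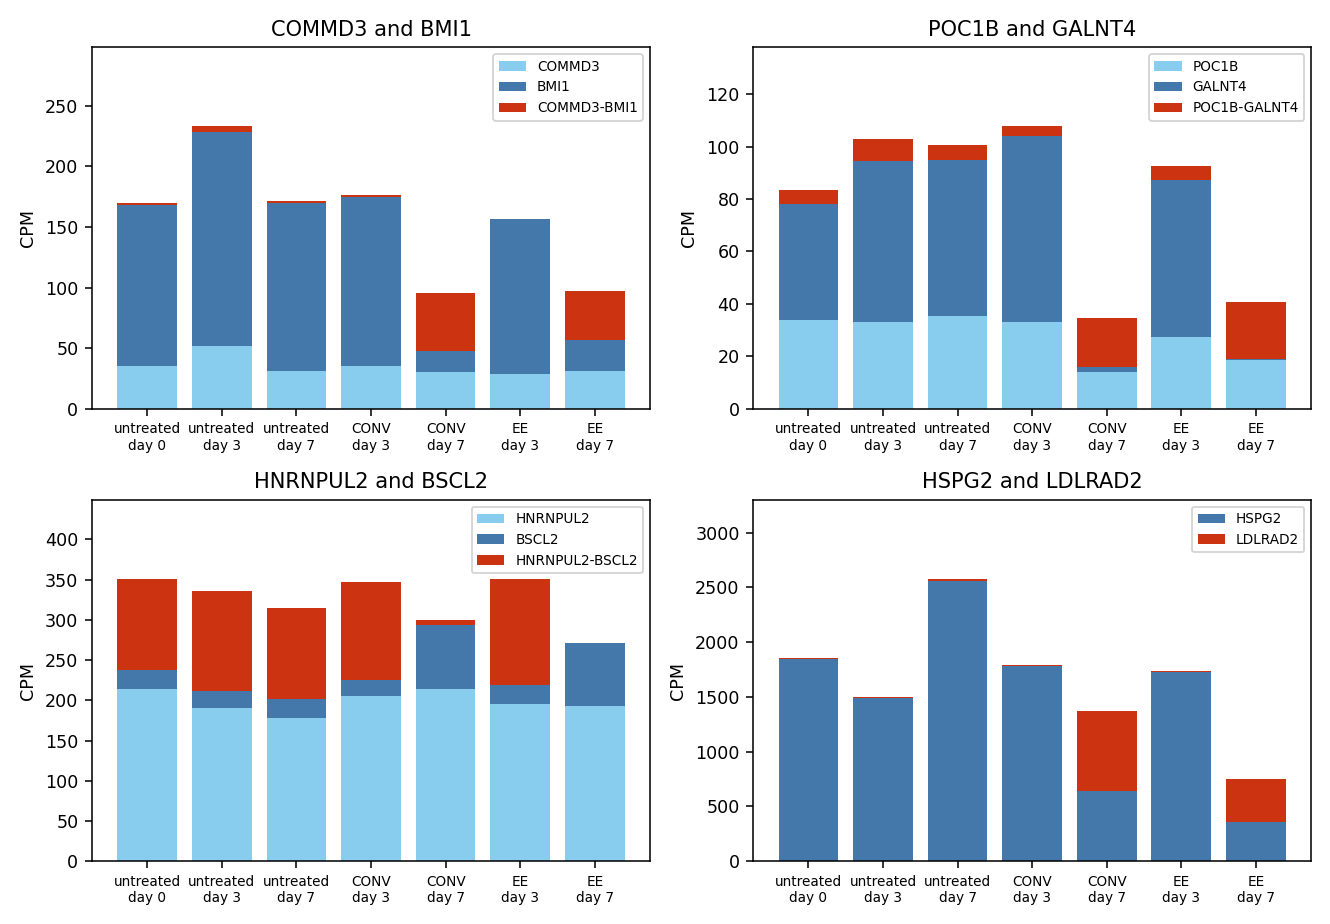
Stacked bars give the CPM (y axis, from 0) of the genes at 4 loci in each of the 7 libraries (x axis). In the COMMD3 and BMI1 panel the red part, COMMD3-BMI1, is visible in the 2 topotecan day-7 libraries at 47.6 and 41.2 CPM and is at most 4.64 CPM in the others, and in the HSPG2 and LDLRAD2 panel LDLRAD2 is at 728 and 395 CPM there and at most 15.8 CPM elsewhere.

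Shifts within a locus were also present where genes lie on opposite strands or within one another. LDLRAD2, an LDL receptor class A domain gene whose span overlaps that of HSPG2 (the basement membrane proteoglycan perlecan) on the other strand, was at 15.2 CPM on day 3 of CONV-TOPO and 728 CPM on its day 7, at 8.04 and 395 CPM on the same days of EE-TOPO, and at 14.3 and 15.8 CPM without drug. Its ratio was 47.9 in CONV-TOPO (bounds 42 and 54.8) and 49.1 in EE-TOPO (bounds 42.3 and 57.1). HSPG2 went from 1780.1 to 642 CPM with CONV-TOPO, from 1728 to 359.7 CPM with EE-TOPO and from 1489 to 2561 CPM untreated, and the ratio of their sum was 0.763 in CONV-TOPO (bounds 0.749 and 0.776) and 0.435 in EE-TOPO (bounds 0.426 and 0.444). TIAF1 lies within MYO18A, an unconventional myosin gene. TIAF1 went from 3.28 to 33.2 CPM with CONV-TOPO and from 0.513 to 29.5 CPM with EE-TOPO, MYO18A went from 72.2 to 19.6 CPM with CONV-TOPO and from 67.3 to 10.1 CPM with EE-TOPO, and their sum was 1.43-fold and 1.71-fold lower. BEST1 (bestrophin 1, a chloride channel) overlaps FTH1 (the ferritin heavy chain). BEST1 went from 81.3 to 253 CPM with CONV-TOPO and from 67.6 to 296 CPM with EE-TOPO, and FTH1 went from 14919.9 to 16734 CPM with CONV-TOPO and from 11820.3 to 18181 CPM with EE-TOPO, so both were higher.

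PCDHGC3 had the highest ratio of all tested genes in each regimen. It belongs to the gamma-protocadherin cluster of adhesion genes, whose members share their constant exons. It was at 0.453 CPM on day 3 of CONV-TOPO and 83.7 CPM on its day 7, at 0.183 and 92.4 CPM on the same days of EE-TOPO, and at 0.458 and 0.462 CPM without drug, and its ratio was 185 in CONV-TOPO (bounds 88 and 453) and 505 in EE-TOPO (bounds 202 and 1909). The other PCDHG genes summed went from 117 to 32.8 CPM with CONV-TOPO, from 133 to 26.4 CPM with EE-TOPO and from 103 to 126 CPM untreated, so the rest of the cluster was lower where PCDHGC3 was higher. KIAA0754 (within MACF1, a spectraplakin) and ZBED6 (within ZC3H11A, an mRNA export factor) had lower ratios than their host genes. KIAA0754 went from 27.1 to 1.76 CPM with CONV-TOPO, from 51.4 to 0.798 CPM with EE-TOPO and from 17.3 to 38.4 CPM untreated and MACF1 from 197 to 80.2 CPM with CONV-TOPO, from 243 to 72.3 CPM with EE-TOPO and from 148 to 238 CPM untreated. ZBED6, a zinc finger repressor, went from 21.3 to 2.61 CPM with CONV-TOPO and from 32.3 to 0.932 CPM with EE-TOPO and ZC3H11A from 206 to 151 CPM with CONV-TOPO and from 201 to 150.4 CPM with EE-TOPO.

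Overlap was frequent at both ends of the ranking. Of all tested genes, 27.7% overlap the span of another listed gene and 7.27% do so on the same strand. Of the 9 genes at least 4-fold higher in both regimens, 8 overlap another gene (7 on the same strand), and of the 57 at least 4-fold lower, 33 do (57.9%). Some of these genes, such as PCDHGC3 and COMMD3-BMI1, passed the filter of 10 CPM only through their day-7 values. Over the whole called sets the shares were 37.6% for the 173 higher and 27.8% for the 1175 lower genes. The 12 highest genes were PCDHGC3, LDLRAD2, COMMD3-BMI1, TIAF1, CHURC1-FNTB, TMEM238, INO80B-WBP1, NUDT4B, POC1B-GALNT4, LOC727751, FMC1-LUC7L2 and TH, and 10 of them overlap another gene. The 12 lowest were GALNT4, HNRNPUL2-BSCL2, ABCF2-H2BE1, CRYBG3, KIAA0754, FER1L6, HERC2P3, GOLGA8A, LOC101927751, GOLGA8B, RALGAPA1P1 and IGF2BP3, and 9 of them do.

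Several of the lowest genes have near-identical copies, so the authors' counting could have split their reads. They include the pseudogenes HERC2P3 (46.7 to 4.06 and 27.3 to 1.72 CPM) and RALGAPA1P1 (22.6 to 2.10 and 27.8 to 3.08 CPM) and the golgin copies GOLGA8A and GOLGA8B, and their values are uncertain for that reason. Among the highest, NUDT4B (4.56 to 19.5 and 3.09 to 14.4 CPM) and LOC727751 (4.65 to 17.3 and 1.22 to 19 CPM) are in the same position. ABCF2-H2BE1, listed over ABCF2, went from 22 to 0.621 CPM with CONV-TOPO and from 27.2 to 1.63 CPM with EE-TOPO. CRYBG3, a crystallin-domain protein gene, went from 51.2 to 3.17 CPM with CONV-TOPO and from 61.2 to 2.04 CPM with EE-TOPO, and IGF2BP3, which encodes an oncofetal RNA-binding protein that stabilizes mRNAs, went from 25.1 to 2.92 CPM with CONV-TOPO and from 26.4 to 2.52 CPM with EE-TOPO. Both overlap a listed gene, RIOX2 and MALSU1.

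The 7196 tested genes whose span overlaps no listed gene held 108 called higher and 848 called lower. Their highest were TMEM238, TH, CLIC3, WFDC3, CITED4, TMEM102, MZT2A, TMEM145, TGFBR3L and RNF208, picked after their values were seen. TMEM238, a small membrane protein gene, was at 50.1 CPM on day 3 of CONV-TOPO and 236 CPM on its day 7, at 51.2 and 225 CPM on the same days of EE-TOPO, and at 30.4 and 37.5 CPM without drug. Its ratio was 4.72 in CONV-TOPO (bounds 4.36 and 5.11) and 4.39 in EE-TOPO (bounds 4.10 and 4.69). TH, tyrosine hydroxylase, which makes the first committed step of catecholamine synthesis, went from 8.36 to 29.2 CPM with CONV-TOPO, from 5.29 to 26.9 CPM with EE-TOPO and from 11.9 to 10.7 CPM untreated. CLIC3, a chloride intracellular channel protein that takes part in integrin recycling, went from 12.8 to 46.2 CPM with CONV-TOPO, from 13.3 to 45.4 CPM with EE-TOPO and from 13.5 to 10.8 CPM untreated. CITED4, a coactivator that binds CBP and p300, went from 12.2 to 37.5 CPM with CONV-TOPO, from 13.1 to 38 CPM with EE-TOPO and from 13.9 to 15.6 CPM untreated. These genes were higher in both topotecan day-7 libraries than in any other library. MZT2A, a subunit of the gamma-tubulin complex, went from 32.2 to 88.8 CPM with CONV-TOPO, from 27.4 to 76.5 CPM with EE-TOPO and from 35.7 to 32.7 CPM untreated. The canonical transcripts of the 10 have 599 to 2575 bases and a GC content of 53.6% to 76%.

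The lowest without overlap were FER1L6, GOLGA8A, GOLGA8B, MYSM1, AHCTF1P1, PABPC1L, ADGRV1, FAM135A, NEAT1 and DMXL2. FER1L6, a ferlin membrane protein gene, was at 18.4 CPM on day 3 of CONV-TOPO and 1.34 CPM on its day 7, at 26.6 and 1.33 CPM on the same days of EE-TOPO, and at 7.98 and 11.3 CPM without drug. MYSM1, a histone H2A deubiquitinase, went from 40.8 to 4.19 CPM with CONV-TOPO, from 33.2 to 4.39 CPM with EE-TOPO and from 32.4 to 40.1 CPM untreated. DMXL2, a regulator of the proton pump of vesicles, went from 21.6 to 4.32 CPM with CONV-TOPO, from 27 to 5.86 CPM with EE-TOPO and from 18.3 to 23.8 CPM untreated. Each was lower in both topotecan day-7 libraries than in any other library. ADGRV1, a giant adhesion receptor, went from 21.7 to 3.83 CPM with CONV-TOPO, from 28.2 to 4.86 CPM with EE-TOPO and from 13.6 to 23.5 CPM untreated.

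Of transcript length, GC content and gene span, transcript length went most closely with the topotecan changes. Over the 9798 tested genes with a canonical transcript in GENCODE 44, the rank correlation of the log2 change with transcript length was -0.685 for CONV-TOPO and -0.723 for EE-TOPO, and 0.371 untreated. With GC content it was 0.512, 0.569 and -0.049. At fixed GC the correlation with length was -0.643, -0.698 and 0.375, and at fixed length that with GC was 0.431, 0.523 and 0.076. Gene span, which includes introns, gave -0.533, -0.594 and 0.390. These are descriptions across genes of the same libraries.

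In quintiles of transcript length, the median log2 change of CONV-TOPO was 0.46, 0.03, -0.35, -0.60 and -0.88 from the shortest to the longest, and that of EE-TOPO 0.58, 0.09, -0.32, -0.65 and -1.05. Untreated, the order was the opposite, with medians of -0.14, -0.08, -0.02, 0.04 and 0.16. The shortest quintile (up to 1836 bases) held 125 of the genes called higher and 11 of those called lower. The longest quintile (5949 bases or more) held 1 and 710, and 36.2% of its genes were called lower. The 587 genes that were both in the shortest and in the GC-richest quintile had medians of 0.75 and 0.90, and the 651 in the longest and GC-poorest had -0.98 and -1.20. The genes called higher had a median transcript of 1075 bases and 62.8% GC, those called lower 6747 bases and 41.7%, and all tested genes 3424 bases and 48.8%.

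**Figure D3:**
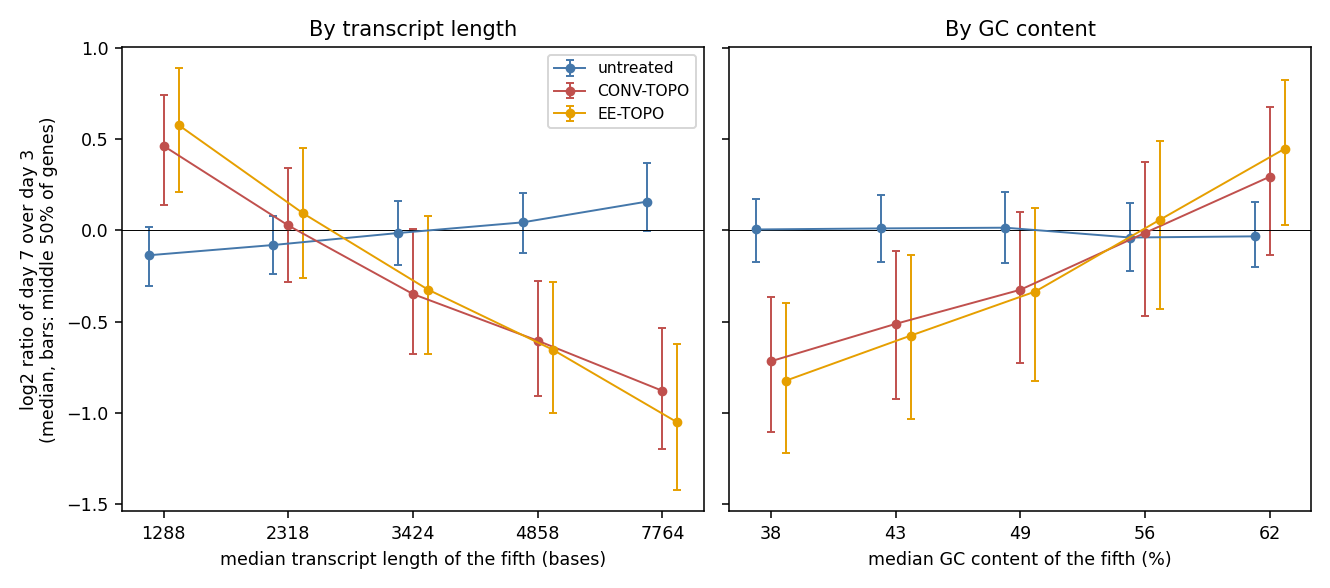
The y axis gives the median log2 ratio of day 7 over day 3 in quintiles of the 9798 annotated genes by transcript length (left, x axis in bases) and GC content (right, x axis in %), with bars for the middle 50% of genes. Both topotecan lines descend with length from 0.46 and 0.58 to -0.88 and -1.05 while the untreated line runs from -0.14 to 0.16.

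A linear trend in log2 transcript length, log2 span and GC content held 51.9% of the variance of the CONV-TOPO change, 61.0% for EE-TOPO and 16.4% untreated. With it removed, 28 genes were at least 2-fold higher in both regimens and 273 at least 2-fold lower. The highest were then PCDHGC3, LDLRAD2, COMMD3-BMI1 and NUDT4B, and the lowest GALNT4, HNRNPUL2-BSCL2, FER1L6, CRYBG3 and PABPC1L. Whether transcript length or composition had any part in the amount of each RNA in the spheroids, or in its capture into the library, was not tested, and both day-7 libraries also carried the higher share of ribosomal RNA.

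Gene lists were described by the direction of their tested members and by their medians beside those of all tested genes (-0.27, -0.26 and -0.01). The shares to read each count against were 31.5% higher and 57.7% lower in both regimens, 1.74% called higher and 11.8% called lower, and a count near its share is no result about the list. With TMM in place of CPM, at least 1 topotecan median changed sign from below to above 0 in the mitosis, DNA replication, histone, p53, NF-kB, interferon, chaperone, EMT, snoRNA host, polycomb and readthrough lists, and in the lists of markers absent from PC-3 and of other tissue cells. A list was called shifted where both topotecan medians lay on the same side of the all-gene median by at least 0.5 on the log2 scale.

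Ribosomal RNA and the protein genes of ribosomes and mitochondria were on the higher side. Summed, ribosomal RNA genes went from 4949 to 21894 CPM with CONV-TOPO, from 5915 to 20832 CPM with EE-TOPO and from 5713 to 4838 CPM untreated. The 18S genes, which carry the small subunit rRNA, were 7.21-fold higher with CONV-TOPO and 2.51-fold higher with EE-TOPO, the 28S genes 3.14-fold and 4.36-fold, and the 45S precursor genes 2.12-fold and 1.78-fold. The 45S genes were also 1.77-fold higher untreated. All 13 ribosomal RNA genes were higher in both regimens and 10 were called (RNA28SN1, RNA28SN2, RNA28SN5, the 5 RNA18SN copies, RNA45SN1 and RNA45SN5), with list medians of 1.71, 1.32 and -0.14 untreated. The copies of these genes share reads, and the 5 RNA18SN copies carry identical values.

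Cytosolic ribosomal protein genes were higher in both regimens in 72 of 78, with medians of 0.49 and 0.60 and -0.07 untreated. These counts stand against 31.5% higher and 1.74% called higher among all tested genes. Called higher were 7, among them RPL28, RPS2, RPS9, RPLP2, RPS19 and RPS28. RPL28 of the large subunit went from 627 to 1390.0 CPM with CONV-TOPO, from 499 to 1309 CPM with EE-TOPO and from 644 to 566 CPM untreated. RPS19, the small subunit protein mutated in Diamond-Blackfan anemia, went from 496 to 1026 CPM with CONV-TOPO, from 395 to 931 CPM with EE-TOPO and from 520.3 to 519.6 CPM untreated. Neither was higher in untreated spheroids. Of the most abundant members, RPL8 (2274 to 3603 and 1858 to 3509 CPM) and RPLP0 (1756 to 2502 and 1521 to 2258 CPM) were higher by less than 2-fold. RPS24 (2464 to 2336 and 2523 to 2414 CPM) was lower in both regimens.

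Nuclear genes of the respiratory chain were higher in 64 of 73, with medians of 0.61, 0.65 and -0.15. Called higher were COX8A, ATP5F1D, NDUFA7, NDUFS6 and NDUFS7. COX8A, a subunit of cytochrome c oxidase, went from 172 to 442 CPM with CONV-TOPO, from 172 to 404 CPM with EE-TOPO and from 249 to 184 CPM untreated. ATP5F1D, the delta subunit of ATP synthase, went from 79.7 to 204 CPM with CONV-TOPO, from 65.2 to 199 CPM with EE-TOPO and from 88.6 to 82.9 CPM untreated. NDUFS7, an iron-sulfur subunit of complex I, went from 24.7 to 68.3 CPM with CONV-TOPO, from 23 to 59.4 CPM with EE-TOPO and from 32.7 to 30.8 CPM untreated. All 3 were lower in untreated spheroids. NDUFS1, the largest complex I subunit and one of the longer transcripts of the list, went the other way (118 to 79.8 and 112 to 74.5 CPM). The most abundant members were ATP5F1B (591 to 646 and 603 to 625 CPM) and CYC1 (285 to 480.4 and 247 to 421 CPM). With the length and GC trend removed, the medians of the ribosomal protein list were -0.28 and -0.27 and those of the respiratory chain -0.09 and -0.17, so neither list remained on the higher side.

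The glycolysis and hypoxia list was higher in 20 of 26, with medians of 0.40, 0.32 and 0.18. With the length, span and GC trend removed the topotecan medians were 0.039 and 0.0034, and the list was no longer shifted. Among the enzymes, ALDOA (aldolase A), the one called higher, went from 1547 to 3620.3 CPM with CONV-TOPO, from 1385 to 3326 CPM with EE-TOPO and from 1755 to 1668 CPM untreated, GAPDH went from 3050.4 to 6168 CPM with CONV-TOPO, from 2844 to 5307 CPM with EE-TOPO and from 3881 to 3717 CPM untreated and ENO1 (enolase) went from 2813 to 5255 CPM with CONV-TOPO, from 2676 to 4799.9 CPM with EE-TOPO and from 3514 to 3431 CPM untreated. All 3 were lower on day 7 in untreated spheroids. The hypoxia-induced gene VEGFA, an angiogenic growth factor, was lower (137 to 76.2 and 120.4 to 76.2 CPM), as were HK2 (319 to 214 and 298 to 173 CPM) and the histone demethylase KDM3A (100.1 to 68.3 and 93.1 to 59.7 CPM). NDRG1, a stress gene that hypoxia induces, went from 3749 to 5048 CPM with CONV-TOPO, from 3158 to 3939.7 CPM with EE-TOPO and from 2670.0 to 3961 CPM untreated.

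The list of giant messenger RNAs was lower in both regimens. On the CPM scale all 38 of 38 tested members of the giant messenger RNA list were lower in both regimens, where 57.7% of all tested genes were, and 24 were called lower. All 38 were higher in untreated spheroids. The medians were -1.13, -1.75 and 0.57. With TMM, 36 of the 38 were lower in both. With the length, span and GC trend removed the topotecan medians were -0.27 and -0.63, within 0.5 of those of all genes, and the list was no longer shifted. PLEC, the cytolinker plectin and the most abundant of the list, went from 3669 to 2256 CPM with CONV-TOPO, from 3579 to 2069.6 CPM with EE-TOPO and from 2924 to 3907 CPM untreated. FLNA, an actin crosslinker, went from 1246 to 963 CPM with CONV-TOPO, from 1486 to 1102 CPM with EE-TOPO and from 1365 to 1432 CPM untreated. Both were lower by less than 2-fold in each regimen. KMT2D, a histone H3 lysine 4 methyltransferase, went from 146 to 49.2 CPM with CONV-TOPO, from 208 to 42.4 CPM with EE-TOPO and from 102 to 155 CPM untreated. AKAP9, a scaffold of the centrosome and Golgi, went from 74.4 to 23.7 CPM with CONV-TOPO, from 105 to 19.4 CPM with EE-TOPO and from 64.6 to 91.3 CPM untreated, and HERC2, a ubiquitin ligase of the DNA damage response, went from 127 to 43 CPM with CONV-TOPO, from 126 to 35.6 CPM with EE-TOPO and from 101 to 152 CPM untreated. Each of these 3 was called lower. The others called lower were HSPG2, LAMA5, SRRM2, AHNAK2, GOLGB1, UBR4, MACF1, EP400, USP34, TRRAP, KMT2A, DST, VPS13D, BIRC6, SYNE2, UTRN, MYCBP2, MDN1, HERC1, NBEAL1 and VPS13C, and the regimen with the smaller change gave a log2 ratio of -1.71 for NBEAL1, the lowest of these 21. MKI67 (87.8 to 71.7 and 128 to 48 CPM) and CENPF (57.4 to 44.4 and 100.2 to 32.7 CPM), which mark cycling cells, were in the list and not called. Untreated they went from 103 to 192 and from 54.6 to 125 CPM.

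Nuclear long noncoding RNAs were lower in all 5 tested, each called. NEAT1, the scaffold of paraspeckles, went from 708 to 89.9 CPM with CONV-TOPO, from 508 to 96.6 CPM with EE-TOPO and from 316 to 780.0 CPM untreated. MALAT1, a speckle-associated RNA, went from 82.8 to 25.1 CPM with CONV-TOPO, from 130.0 to 13.3 CPM with EE-TOPO and from 73.7 to 112 CPM untreated. In both, the topotecan day-7 values were the lowest of the 7 libraries and the untreated day-7 value was higher than that of day 3. NORAD, which binds PUMILIO proteins and is known to be induced by DNA damage, went from 1099 to 452 CPM with CONV-TOPO, from 1283 to 469.6 CPM with EE-TOPO and from 1002 to 1015 CPM untreated, TUG1 went from 211 to 83.3 CPM with CONV-TOPO, from 229 to 81.2 CPM with EE-TOPO and from 178 to 198 CPM untreated, and OIP5-AS1 went from 229 to 110.1 CPM with CONV-TOPO, from 250.5 to 100.1 CPM with EE-TOPO and from 195 to 219 CPM untreated. The list's medians were -1.34, -1.50 and 0.17. With the length and GC trend removed they were -1.03 and -1.15, still lower than those of all genes by at least 0.5.

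Laminin, integrin and matrix genes, which anchor epithelial cells to the basement membrane, were lower in 21 of 25, with medians of -0.78, -0.98 and 0.38. With the length, span and GC trend removed the topotecan medians were -0.42 and -0.52, and the list was no longer shifted. The 7 called lower were HSPG2, LAMA5, ITGA2, LAMB1, ITGAV, TNC and COL12A1. ITGA2, the collagen-binding integrin alpha 2, went from 365 to 165 CPM with CONV-TOPO, from 411 to 153 CPM with EE-TOPO and from 259 to 473 CPM untreated. LAMA5, laminin alpha 5, went from 713 to 334 CPM with CONV-TOPO, from 559 to 275 CPM with EE-TOPO and from 523 to 1027 CPM untreated. ITGAV, the alpha V integrin that binds vitronectin, went from 86.9 to 25.5 CPM with CONV-TOPO, from 121 to 35 CPM with EE-TOPO and from 74.1 to 96.4 CPM untreated. In untreated spheroids 23 of the 25 were higher on day 7. ITGB4, the hemidesmosome integrin beta 4 and the most abundant of the list, went from 1813 to 2650.0 CPM with CONV-TOPO, from 1238 to 1869.7 CPM with EE-TOPO and from 1424 to 1902 CPM untreated, and it and ITGA5 (129 to 186 and 124 to 163 CPM) were the 2 members higher in both regimens. ITGA3 was next in abundance (1319.9 to 1243 and 1396 to 1373 CPM).

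YAP and TEAD targets, together with the pathway's own factors, were lower in 13 of 14, with medians of -0.80, -0.95 and 0.07. With the length, span and GC trend removed the topotecan medians were -0.59 and -0.75, and the list was no longer shifted. Called lower were MYOF, WWTR1, TEAD1, CRIM1, TGFB2 and LATS2. WWTR1 (TAZ, a coactivator) went from 382 to 165 CPM with CONV-TOPO, from 453 to 154 CPM with EE-TOPO and from 340.1 to 489 CPM untreated, and TEAD1, its DNA-binding partner, went from 120.2 to 52.5 CPM with CONV-TOPO, from 158 to 43.7 CPM with EE-TOPO and from 101 to 149 CPM untreated. LATS2, the kinase that restrains both YAP and TAZ, went from 31.5 to 12 CPM with CONV-TOPO, from 43.2 to 13.8 CPM with EE-TOPO and from 28.1 to 28.1 CPM untreated. FSTL1 was the most abundant (728 to 430.1 and 745 to 491 CPM). The classical secreted targets gave smaller ratios, CCN1 (194 to 171 and 192 to 204 CPM) and CCN2 (34.2 to 21.1 and 34.3 to 24.5 CPM). The members called lower thus include both factors and an inhibitor of the pathway. All 8 tested members of the EGFR list were lower in both regimens on the CPM scale. With TMM, 5 of the 8 were lower in both and none was higher in both. ERBB2, a receptor of the same family, was second in abundance (165 to 131 and 165 to 151 CPM). EGFR itself went from 182 to 95.7 CPM with CONV-TOPO, from 276 to 98 CPM with EE-TOPO and from 157 to 213 CPM untreated, and the ligand EPGN, the one called lower, went from 44.3 to 14.5 CPM with CONV-TOPO, from 28.9 to 10.05 CPM with EE-TOPO and from 92.2 to 30.6 CPM untreated. The list's medians of -0.65 and -0.59 lay within 0.5 of the all-gene medians.

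Among RNA splicing factors 26 of 34 were lower and 6 were called, namely SRRM2, SON, RBM25, SF3B1, LUC7L3 and SRSF11. Of all tested genes 57.7% were lower and 11.8% called lower. SON, which organizes nuclear speckles, went from 416 to 160.0 CPM with CONV-TOPO, from 468 to 151 CPM with EE-TOPO and from 359 to 457 CPM untreated. RBM25, a regulator of 5′ splice site choice, went from 294 to 93 CPM with CONV-TOPO, from 264 to 88.2 CPM with EE-TOPO and from 264 to 309.7 CPM untreated. The most abundant were HNRNPA2B1 (646 to 566 and 689 to 476 CPM) and DDX5 (832 to 392 and 719.9 to 421 CPM), and HNRNPA1 (257 to 289 and 263 to 286 CPM) was among those not called. The list's medians were -0.57, -0.50 and -0.07, less than 0.5 below those of all genes. With TMM, 18 were lower and 14 higher in both regimens.

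The drug's target and its repair genes were lower or split. TOP1 went from 205 to 106 CPM with CONV-TOPO, from 239 to 114 CPM with EE-TOPO and from 218 to 193 CPM untreated, TOP2B went from 131 to 76.3 CPM with CONV-TOPO, from 136 to 65.7 CPM with EE-TOPO and from 135 to 151 CPM untreated and PARP1, which senses strand breaks, went from 250.2 to 156 CPM with CONV-TOPO, from 305 to 154 CPM with EE-TOPO and from 307 to 283 CPM untreated. Of 12 tested genes 9 were lower in both and none was called. TDP1, which removes TOP1 from DNA ends, was at 25.9 CPM on day 3 of CONV-TOPO and 26 CPM on its day 7, at 25.4 and 22.3 CPM on the same days of EE-TOPO, and at 25.1 and 31.4 CPM without drug. SLFN11, known for sensitivity to topoisomerase poisons, went from 19 to 15 CPM with CONV-TOPO and from 17.6 to 8.07 CPM with EE-TOPO. The list's medians were -0.58, -0.62 and -0.11 untreated. With TMM it had 6 lower and 3 higher.

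The p53 targets, in a line known to lack functional p53, had 5 higher and 5 lower of 14. RRM2B (71.7 to 35.5 and 84.8 to 35.9 CPM) and the repair factor XPC (38.4 to 18.9 and 31.3 to 13 CPM) were called lower. The list's medians were -0.21, 0.39 and -0.24 untreated. GDF15, a secreted stress cytokine and the most abundant, went from 1105 to 1716 CPM with CONV-TOPO, from 917 to 2257 CPM with EE-TOPO and from 711 to 365 CPM untreated, so it was higher with topotecan and lower without. PHLDA3, an AKT inhibitor, went from 268 to 486 CPM with CONV-TOPO, from 274 to 603 CPM with EE-TOPO and from 171 to 183 CPM untreated. CDKN1A, the cell cycle inhibitor p21, went from 99 to 92.8 CPM with CONV-TOPO, from 102 to 137 CPM with EE-TOPO and from 117 to 59.1 CPM untreated and was split between the regimens. In the BCL2 family, PMAIP1 (NOXA, a sensitizer to cell death) was called lower and BAD higher. PMAIP1 went from 117 to 47.8 CPM with CONV-TOPO, from 116 to 55.8 CPM with EE-TOPO and from 132 to 91.1 CPM untreated, BAD went from 84.6 to 178 CPM with CONV-TOPO, from 79.3 to 180.5 CPM with EE-TOPO and from 91.9 to 79.98 CPM untreated, and the anti-apoptotic MCL1 went from 417 to 216 CPM with CONV-TOPO and from 445 to 245 CPM with EE-TOPO. The family's medians were 0.08, 0.25 and 0.00 untreated, and BCL2L1 was its most abundant gene (485 to 564 and 457 to 528 CPM).

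Cell cycle genes did not move as a group. Mitosis genes had medians of 0.31 with CONV-TOPO and -0.22 with EE-TOPO and 0.45 untreated, where 17 of 20 were higher. UBE2C, the ubiquitin-conjugating enzyme of the anaphase-promoting complex, was the one called higher (38.6 to 80.4 and 41.3 to 83.8 CPM). The most abundant were BIRC5 (161 to 263 and 212 to 231 CPM) and TPX2 (92.4 to 85.3 and 124 to 73.3 CPM). PLK1 went from 28.8 to 63.9 CPM with CONV-TOPO, from 41.7 to 57.4 CPM with EE-TOPO and from 21.6 to 67.6 CPM untreated. TOP2A, which unknots sister chromatids, went from 47.6 to 44.1 CPM with CONV-TOPO, from 85.8 to 31.9 CPM with EE-TOPO and from 51.9 to 107 CPM untreated. DNA replication genes had medians of -0.01, -0.16 and -0.41 with none called, and RRM2, a ribonucleotide reductase subunit, went from 203 to 182 CPM with CONV-TOPO, from 196 to 175 CPM with EE-TOPO and from 319.7 to 168 CPM untreated. MCM7, of the replicative helicase, was next in abundance (147 to 147 and 139.7 to 169 CPM). Of 13 histone genes with replication-dependent mRNA, H2AC8 was called higher (5.07 to 12.6 and 7.07 to 17.4 CPM). The most abundant histone genes were H2BC12 (227 to 309 and 215 to 333 CPM) and H1-2 (173 to 198 and 142 to 213 CPM). The medians of the histone list were -0.25 and -0.01, and -0.99 and -1.30 with the length and GC trend removed.

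Interferon-stimulated genes differed in direction. IFI27 was called higher, and IFIT1, IFIT2, IFIT3, IFI44L, DDX58 and IFIH1 were called lower. In untreated spheroids all 25 were lower on day 7, with a median of -0.96. With topotecan the medians were -0.50 and -0.21. ISG15, a ubiquitin-like modifier, went from 1060.3 to 1841 CPM with CONV-TOPO, from 809 to 1662 CPM with EE-TOPO and from 939 to 447 CPM untreated. IFI6, a mitochondrial interferon-induced protein gene, went from 962 to 1531 CPM with CONV-TOPO, from 1012 to 1364 CPM with EE-TOPO and from 516 to 200.0 CPM untreated. IFITM3, which blocks viral entry, went from 530.4 to 1034 CPM with CONV-TOPO, from 494 to 966 CPM with EE-TOPO and from 485 to 274 CPM untreated. Those 3 were higher with topotecan in both regimens and lower without. IFIT1 went from 151 to 74.8 CPM with CONV-TOPO, from 186 to 92.4 CPM with EE-TOPO and from 150.1 to 66.1 CPM untreated, and the RNA sensor IFIH1 went from 67.8 to 28.1 CPM with CONV-TOPO, from 72.2 to 25.4 CPM with EE-TOPO and from 52.6 to 26.5 CPM untreated, lower in all 3.

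Of NF-kB targets and chemokines, BIRC3, an inhibitor of apoptosis, was called lower (60.6 to 21.5 and 114 to 35.7 CPM). CXCL8, a neutrophil chemokine, went from 228 to 127 CPM with CONV-TOPO, from 312 to 239 CPM with EE-TOPO and from 1600.3 to 174 CPM untreated. ICAM1, an adhesion molecule, was the next most abundant (204 to 186 and 246 to 211 CPM). The untreated list had a median of -0.90, against -0.34 and -0.29. The integrated stress response list was higher in 12 of 19 with none called, and 18 of its 19 members were lower untreated. Its medians were 0.05, 0.19 and -0.66 untreated, and STC2 (314 to 395 and 363 to 379.8 CPM) and SLC3A2 (312 to 323 and 273 to 499 CPM) were its most abundant genes. TRIB3, a pseudokinase, went from 233 to 263 CPM with CONV-TOPO, from 188 to 273 CPM with EE-TOPO and from 215 to 121 CPM untreated. Immediate early genes gave 8 higher and 7 lower of 15, and 13 of them were lower untreated. The medians were 0.03, 0.27 and -0.56 untreated. FOSL1, the most abundant, went from 837 to 1088 CPM with CONV-TOPO, from 918 to 1108 CPM with EE-TOPO and from 1164 to 892 CPM untreated, and IER2 was next (447 to 591 and 325 to 542 CPM).

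Chaperones also differed in direction. HSPB1, the small heat shock protein 27 gene, was called higher and went from 153 to 407 CPM with CONV-TOPO, from 169 to 455 CPM with EE-TOPO and from 166 to 167 CPM untreated, while HSPA4L was called lower (14.8 to 6.81 and 17.9 to 6.65 CPM) and HSP90AA1 went from 1114 to 856 CPM with CONV-TOPO and from 1430.0 to 874 CPM with EE-TOPO. HSP90AB1 was the most abundant (1202 to 1219 and 1431 to 1363 CPM). The chaperone medians were 0.11, -0.10 and 0.04 untreated. In the proteasome list 22 of 31 were higher and PSMB6, a catalytic core subunit, was called (73.6 to 158 and 72 to 152 CPM). The most abundant were PSMD2 (335 to 352 and 409 to 416 CPM) and PSMA7 (230.4 to 307 and 221 to 282 CPM), and the medians were 0.22, 0.20 and -0.10 untreated. Of NRF2 targets 11 of 17 were higher with none called, and the medians were 0.21, 0.38 and -0.05 untreated. HMOX1, heme oxygenase 1, went from 34.1 to 64.2 CPM with CONV-TOPO, from 36.9 to 104 CPM with EE-TOPO and from 13.8 to 13.2 CPM untreated. After FTH1, FTL, the ferritin light chain, was the most abundant (570.1 to 1011 and 676 to 1265 CPM). Cholesterol and fatty acid synthesis gave medians of 0.16 with CONV-TOPO and -0.39 with EE-TOPO. FADS2 (971 to 1360.3 and 840.1 to 918 CPM) and SCD (908 to 855 and 858 to 599 CPM), desaturases of fatty acids, were the most abundant. MVD, of the mevalonate pathway, went from 67.7 to 177 CPM with CONV-TOPO, from 54.1 to 105 CPM with EE-TOPO and from 77.6 to 66.3 CPM untreated. Of the snoRNA host genes, SNHG16 (225 to 445 and 239 to 407 CPM) and SNHG29 (183 to 131 and 138 to 146 CPM) were the most abundant. SNHG14, a long transcript, was called lower (23.5 to 5.11 and 27.9 to 3.59 CPM), and the list's medians were -0.21 and 0.74.

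Polycomb genes were lower in 14 of 21, and BMI1, PHC3 and JARID2 were called. Both counts lie near the shares of all tested genes, 57.7% lower and 11.8% called lower. The medians were -0.29, -0.40 and -0.06 untreated. PHC3, of the canonical repressive complex 1, went from 55.5 to 20.7 CPM with CONV-TOPO, from 64.2 to 21.9 CPM with EE-TOPO and from 45.3 to 53 CPM untreated, and SUZ12 of complex 2 went from 85.2 to 43 CPM with CONV-TOPO, from 87.7 to 37.3 CPM with EE-TOPO and from 85.4 to 98.3 CPM untreated. PHC2 (392 to 385 and 317 to 259 CPM) and RBBP7 (153 to 125 and 141 to 116 CPM) were the most abundant. The BMI1 value is tied to that of COMMD3-BMI1 through shared exons. The COMMD list holds COMMD genes, whose proteins form the Commander complex with CCDC22 and CCDC93, and also BMI1 and the marker COMMD3-BMI1. It was higher in 7 of 12, with medians of 0.30, 0.43 and -0.26. COMMD3-BMI1, which the choice of this comparison had named, is among the 7, so the count and medians are not independent of it. COMMD4 went from 33.3 to 64.8 CPM with CONV-TOPO, from 29.7 to 62.1 CPM with EE-TOPO and from 41.5 to 30.6 CPM untreated, COMMD5 went from 114 to 141 CPM with CONV-TOPO, from 106 to 149 CPM with EE-TOPO and from 116 to 93.6 CPM untreated, and CCDC93, the longest of them, was called lower and went from 58.7 to 17.6 CPM with CONV-TOPO, from 58.7 to 18.8 CPM with EE-TOPO and from 39.8 to 47.2 CPM untreated. With the length and GC trend removed the list's medians were -0.24 and -0.12.

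The EMT genes that the study names were chosen in part on these samples and are not independent evidence of a direction. Of 25 tested, 15 were lower and 8 higher, with medians of -0.17, -0.31 and 0.16. AHNAK2, CD109 and TGFBR2 were called lower. These counts lie near the shares of all tested genes, 57.7% lower, 31.5% higher and 11.8% called lower. CD109, a co-receptor that restrains TGF-beta signaling, went from 122 to 55.4 CPM with CONV-TOPO, from 149 to 62 CPM with EE-TOPO and from 112 to 139 CPM untreated, and TGFBR2, the TGF-beta type II receptor, went from 104 to 49.8 CPM with CONV-TOPO, from 123 to 47.2 CPM with EE-TOPO and from 94.3 to 98.4 CPM untreated. Both were higher in untreated spheroids. FN1, fibronectin, went from 336 to 237 CPM with CONV-TOPO, from 544 to 203 CPM with EE-TOPO and from 360.4 to 530.4 CPM untreated. VIM, vimentin, went from 982 to 1041 CPM with CONV-TOPO, from 1002 to 1074 CPM with EE-TOPO and from 851 to 802 CPM untreated, and CDH1, E-cadherin, went from 294 to 257 CPM with CONV-TOPO, from 327 to 268 CPM with EE-TOPO and from 223 to 302 CPM untreated. S100A6, the most abundant, went from 3007 to 4378 CPM with CONV-TOPO, from 2265 to 4109.8 CPM with EE-TOPO and from 3074 to 2252 CPM untreated, and FSCN1, the actin bundler fascin, went from 1095 to 1419.6 CPM with CONV-TOPO, from 898 to 1341 CPM with EE-TOPO and from 1059 to 1193 CPM untreated. CD55, a complement regulator at the cell surface, had ratios of 0.765 in CONV-TOPO (bounds 0.728 and 0.804) and 0.712 in EE-TOPO (bounds 0.675 and 0.75), with 0.851 untreated. HAS3, a hyaluronan synthase, had ratios of 0.715 in CONV-TOPO (bounds 0.696 and 0.735) and 0.749 in EE-TOPO (bounds 0.729 and 0.769), with 1.24 untreated. The log2 changes were -0.39 and -0.49 for CD55 and -0.48 and -0.42 for HAS3, against all-gene medians of -0.27 and -0.26. The bounds do not cover that offset, and the span of HAS3 overlaps those of CHTF8 and DERPC. With TMM the list had 12 higher and 9 lower.

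Some genes were called one way with topotecan and were at least 2-fold changed the other way untreated. Of the 54 tested genes at least 2-fold higher untreated, 27 were called lower with topotecan, where 11.8% of all tested genes were. Of the 82 at least 2-fold lower untreated, 4 were called higher with topotecan, where 1.74% of all tested genes were. More of the 82, namely 11, were called lower with topotecan, where 11.8% of all tested genes were. By the size of the difference the 27 started with GOLGA8A, KIAA0754, GOLGA8B, LOC101927751, HERC2P2 and PABPC1L. GOLGA8A, a golgin family gene, was at 184 CPM on day 3 of CONV-TOPO and 13.2 CPM on its day 7, at 121 and 12.4 CPM on the same days of EE-TOPO, and at 81.7 and 274 CPM without drug, and at 55 CPM on day 0. The untreated series increased with day while both topotecan day-7 values were below all others. GOLGA8B was at 85.4 CPM on day 3 of CONV-TOPO and 5.02 CPM on its day 7, at 45.7 and 5.06 CPM on the same days of EE-TOPO, and at 35.6 and 106 CPM without drug. PABPC1L, a poly(A)-binding protein gene, was at 47.6 CPM on day 3 of CONV-TOPO and 6.44 CPM on its day 7, at 26.9 and 4.52 CPM on the same days of EE-TOPO, and at 22.9 and 58.7 CPM without drug. HERC2P2, a HERC2 pseudogene, went from 75.4 to 8.22 CPM with CONV-TOPO, from 43.2 to 5.22 CPM with EE-TOPO and from 39 to 95.6 CPM untreated.

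Other members of that set, named after their values were seen, were CCNL2, LENG8 and RSRP1. CCNL2, a cyclin that takes part in splicing, went from 347 to 76.2 CPM with CONV-TOPO, from 175 to 75.7 CPM with EE-TOPO and from 165 to 386 CPM untreated. LENG8 went from 202 to 51 CPM with CONV-TOPO, from 113 to 44.9 CPM with EE-TOPO and from 96.2 to 303 CPM untreated, and RSRP1 went from 27.8 to 11.1 CPM with CONV-TOPO, from 24.3 to 11.5 CPM with EE-TOPO and from 12.6 to 37.1 CPM untreated. These 3 also had day-3 values with topotecan above the untreated day-3 value. The set also held TTN (25.2 to 8.39 and 30.3 to 4.59 CPM), the fibrillin gene FBN2 (335 to 156 and 466 to 124 CPM), the calcium channel gene ITPR1 (120.5 to 55.3 and 147 to 32.4 CPM) and the kinase gene PRKCA (76.7 to 33.5 and 86.3 to 37.1 CPM).

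The 4 higher with topotecan and lower untreated were NUDT4B, COMMD3-BMI1, IFI27 and LTB. IFI27, a mitochondrial interferon-induced gene, was at 54.5 CPM on day 3 of CONV-TOPO and 133 CPM on its day 7, at 61.1 and 133 CPM on the same days of EE-TOPO, and at 27.5 and 9.61 CPM without drug. Its ratio was 2.44 in CONV-TOPO (bounds 2.25 and 2.64) and 2.18 in EE-TOPO (bounds 2.04 and 2.34), with 0.349 untreated. With the length and GC trend removed its EE-TOPO change was -0.12. It was already higher on day 3 of both regimens than in the untreated library of that day. LTB, lymphotoxin beta, was at 10.1 CPM on day 3 of CONV-TOPO and 24 CPM on its day 7, at 11.5 and 37.7 CPM on the same days of EE-TOPO, and at 17.1 and 7.82 CPM without drug. On day 3 the topotecan values of LTB were below the untreated one, and on day 7 they were above every untreated value. NUDT4B, whose reads may belong to copies of NUDT4, was at 4.56 CPM on day 3 of CONV-TOPO and 19.5 CPM on its day 7, at 3.09 and 14.4 CPM on the same days of EE-TOPO, and at 5.62 and 0.182 CPM without drug. The last of these values is near the 3-read limit of 0.158 CPM in that library.

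**Figure D4:**
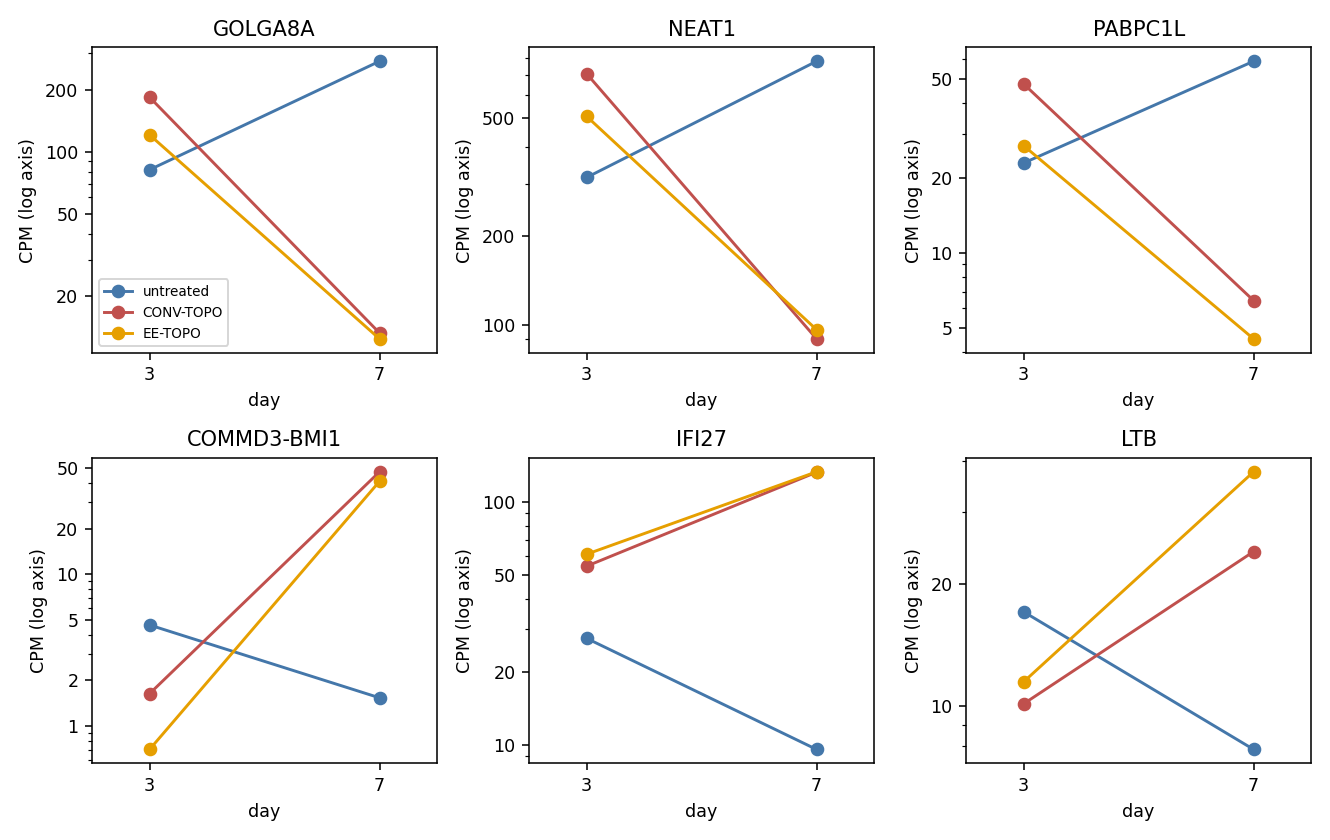
Lines join the CPM (y axis, log scale) on day 3 and day 7 (x axis) of 6 genes that were at least 2-fold changed one way with topotecan and the other way untreated, with 1 library for each point. GOLGA8A, NEAT1 and PABPC1L descend with topotecan and ascend untreated, and COMMD3-BMI1, IFI27 and LTB do the reverse.

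The change could also be set between the regimens. The median of the EE-TOPO minus the CONV-TOPO log2 change was 0.01, and 103 of 9958 genes (1.03%) differed by at least 2-fold between the regimens. Taken alone, CONV-TOPO had 250 genes at least 2-fold higher and 1472 lower, and EE-TOPO 427 and 1831.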

How the data were processed

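Total RNA of PC-3 spheroids was sequenced after TruSeq preparation, and the authors aligned reads to hg38 with STAR and processed them in Partek. The deposited table holds CPM (counts per 1000000 reads of each library) with an offset of 0.0001, which was subtracted. How reads were assigned to genes, and whether strand was used, is not given in the sources used here. Groups came from the labels, with 1 library in each. No test across libraries was made, and a fit that takes the 2 regimens as replicates was not run. In place of the whole-number reads, depth was estimated from the steps of low values. At a tolerance of 0.02 of a read, 89.0% to 90.9% of low values were whole, so no count test was run, and the estimated reads served for exact conditional binomial intervals only.

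From the CPM, log2(CPM + 0.1) ratios of day 7 over day 3 were computed for genes that averaged at least 10 CPM over the 4 treated libraries. The genes named were COMMD3-BMI1, AHNAK2, CD55, HAS3, the 12 highest and 12 lowest by the smaller regimen change, the 6 most opposite to the untreated change in each direction and, in each list, the most abundant and the called members. Other genes were named for their function or after their values were seen. A few genes that the rule names are not reported here. The members and lists were chosen with earlier results of these data known. Transcripts, GC content and joins came from GENCODE 44 (GRCh38), which covered 98.4% of tested genes. Alternatives were TMM and median-of-ratios scaling, other CPM minimums, fold thresholds and pseudocounts, a linear length, span and GC trend removed, and each regimen alone. Overlapping or exon-sharing genes and ribosomal RNA were also treated differently, chosen after seeing the data. Calculations were tested on simulated data and used scipy 1.17.1, pandas 2.3.3 and numpy 2.4.6 under Python 3.11.15, with figures by matplotlib 3.10.9.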

Additional observations from a re-analysis of the deposited data

Results flagged for a closer look

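In these results both topotecan pairs moved one way from day 3 to day 7 and the untreated pair moved the other way. The difference between treated and untreated spheroids was not tested, since each value rests on 1 library a day. Values are the log2 change of the regimen with the smaller change minus the untreated log2 change. They are on the CPM scale, where the all-gene medians were -0.27 with CONV-TOPO, -0.26 with EE-TOPO and -0.01 untreated. That offset is not taken out, and it weighs most on small differences such as that of HAS3.

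Among the genes higher with topotecan the difference was 6.41 for NUDT4B, 6.31 for COMMD3-BMI1, 2.94 for INO80B-WBP1, 2.63 for IFI27, 2.60 for POC1B-GALNT4 and 2.35 for LTB. Most of these are readthrough genes or copies whose reads could be split between genes, and IFI27 and LTB overlap no listed gene. The difference for NUDT4B rests on an untreated day-7 value near the 3-read limit.

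Among the genes lower with topotecan it was -5.02 for GOLGA8A, -5.01 for KIAA0754, -4.72 for GOLGA8B, -4.58 for LOC101927751, -4.56 for CRYBG3, -4.40 for HERC2P3 and -4.31 for HERC2P2. It was -4.25 for ABCF2-H2BE1, -4.19 for FER1L6, -3.90 for PABPC1L, -3.37 for IGF2BP3, -1.84 for AHNAK2 and -0.72 for HAS3.

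Of the gene lists, the median differed by -1.70 for giant messenger RNAs, -1.51 for long noncoding RNAs, -1.15 for laminin, integrin and matrix genes and -0.87 for YAP and TEAD targets. On the higher side it differed by 1.47 for ribosomal RNA, 0.76 for the respiratory chain, 0.56 for cytosolic ribosomal proteins and 0.56 for the COMMD list. The COMMD list includes BMI1 and the marker COMMD3-BMI1 itself. The lists differ in transcript length and GC content, which moved with the change over all genes, and their part in these differences was not tested.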

How the results depend on the processing

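No paired analysis was possible because the groups share a single replicate number and the results come from no test. A fit across the regimens as pairs was not run. No group had a second library to leave out. Genes at least 2-fold higher and lower in both regimens (173 and 1175) numbered 640 and 491 with TMM, 674 and 469 with median-of-ratios scaling, 102 and 387 at a minimum of 50 CPM, 261 and 1838 at 1 CPM, 912 and 2852 at a 1.5-fold threshold, 9 and 57 at 4-fold, 28 and 273 with the trend removed, and 427 and 1831 in EE-TOPO alone. Without genes of overlapping span, 108 were higher. Untreated, 86 were higher at 5 CPM, 14 higher and 33 lower at 50 CPM, 272 and 222 at 1 CPM, 368 and 359 at 1.5-fold and 0 and 6 at 4-fold. Genes of shared direction numbered 1783 higher and 2311 lower at 50 CPM, and 1561 were higher with the trend removed. Genes above and below the untreated change (489 and 1634) numbered 1146 and 896 with TMM, 1161 and 886 with median-of-ratios, 286 and 582 at 50 CPM, 1414 and 3083 at 1.5-fold, 21 and 182 at 4-fold and 87 and 552 with the trend removed. There were 2590 below at 1 CPM and 864 above in EE-TOPO alone. With gene span in place of transcript length the rank correlation was -0.53 and -0.59. With the trend removed the medians turned to -0.28 and -0.27 for ribosomal proteins, -0.093 and -0.17 for the respiratory chain and -0.24 and -0.12 for the COMMD list, and IFI27 turned to -0.12 in EE-TOPO. With the trend removed, the giant messenger RNA, matrix, YAP and TEAD, and glycolysis lists also were no longer shifted, and the histone list became lower (-0.99 and -1.30). The cause of these shifts was not tested, apart from the fewer genes or other threshold that some settings set by construction. Depth limits values near 3 reads, and 1 library a group limits every comparison.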
